A study of Bos taurus with 81 samples.

Results

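The libraries described here map acetylation of histone H3 at lysine 27 (H3K27ac) in bovine embryos at the morula (MO) and blastocyst (BL) stages. They are 4 of the 81 libraries of the series, 2 from each stage, and all were made with CUT&Tag, in which an antibody to the mark directs a transposase to cut and tag the chromatin around it. Embryos were produced in vitro from slaughterhouse oocytes and frozen semen, and their zona pellucida was removed with pronase. Morulae were collected at 122 h and blastocysts at 172 h after insemination. Each library pooled about 1000 to 1500 blastomeres from several embryos. None of the libraries described comes from the embryos that the design lists as exposed to the transcription inhibitor α-amanitin, although the labels carry that treatment note on every sample. Blastocyst libraries hold both lineages together. The same mark was also mapped in inner cell mass (ICM) freed by immunosurgery, in which antibody and complement kill the outer cells, and in trophectoderm (TE) cut off under the microscope with a micro scalpel, with 2 libraries each. ATAC-seq, which reads open chromatin through transposase access, covered blastocyst, ICM and TE with 3 libraries each.

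H3K27ac is placed by acetyltransferases such as p300 and CBP and is removed by histone deacetylases. It lies on active promoters and enhancers, and on the same residue it excludes H3K27me3, the mark of Polycomb repression. Between morula and blastocyst the embryo makes its first lineage decision: outer cells become trophectoderm, the epithelium that goes on to form placenta, and inner cells become the inner cell mass, the source of the embryo proper and of the hypoblast.

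The autosomes, 1 to 29 in the ARS-UCD1.2 build, were divided into 2488032 bins of 1 kb, and a bin counted as marked in a library where peaks covered at least 50% of it. In at least 1 of the 4 lists, 155329 bins were marked. Bins marked in all 4 are called kept. Bins marked in both morula and neither blastocyst library are called lost, and bins marked in both blastocyst and neither morula library are called gained. Together these classes held 87023 bins, and the other 68306 marked bins had another pattern. The deposited lists give positions and a score but no reads, so depth is unknown, and a missing peak is a region that was not called, not a region shown to lack the mark. With bulk samples, fewer cells carrying a mark and less mark per cell cannot be told apart. Peaks were called in each library separately. Neighbouring bins share peaks and are not independent, so each test below used 1 value per library, and p-values measure only the spread between these samples.

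Morula lists covered more than double the length of blastocyst lists. On the autosomes morula replicate 1 held 139879 peaks over 115.2 Mb and replicate 2 held 105276 peaks over 112.6 Mb. Blastocyst replicate 1 held 58732 peaks over 49.0 Mb and replicate 2 held 65227 peaks over 55.1 Mb. The stages did not overlap in covered length. The blastocyst mean lay 1.13 below the morula mean on the log2 scale, and morula lists covered 2.19 times as much as blastocyst lists. An exact two-sided permutation test over libraries gave p = 0.333, the smallest value that 2 against 2 allows, so no comparison of 2 libraries with 2 could pass 0.05. ICM lists covered 98.2 and 91.3 Mb and TE lists 57.4 and 60.3 Mb, so whole blastocysts lay nearer to TE than to ICM in this respect.

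**Figure D1:**
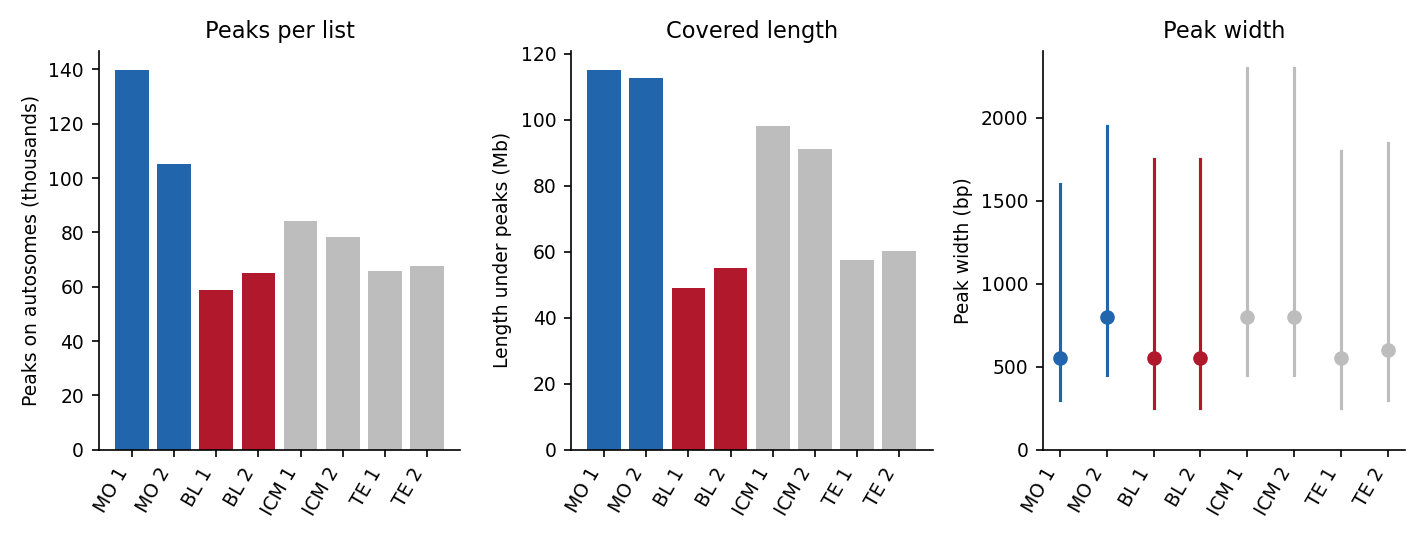
The panels show, for each H3K27ac library, the number of autosomal peaks, the length under peaks in Mb, and the peak width in bp with the median as a point and the 10th to 90th percentile as a line. Morula lists are blue, blastocyst lists red, and the isolated lineages grey; morula lists cover 112.6 and 115.2 Mb and blastocyst lists 49.0 and 55.1 Mb.

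Median widths overlapped between the stages in the lists as deposited. The median peak was 550 bp in morula replicate 1, 800 bp in morula replicate 2 and 550 bp in both blastocyst libraries. The morula replicates stood apart from each other, and 1 of them equalled the blastocyst median (blastocyst minus morula -125 bp, exact permutation p = 1). The difference was -250 bp without morula replicate 1 and 0 without morula replicate 2. With each list cut to the length of the shortest, it was -1175 bp when peaks were ranked by score. Ranked by score per base, it was -575 bp (exact permutation p = 0.333 for each). The cut left blastocyst replicate 1 (49.0 Mb) whole and fell mainly on the morula lists. Score also rose with width within each of the 4 lists (rank correlation 0.91 to 0.95), so a cut by score kept the wider morula peaks. These values therefore do not compare best-scoring peaks of both stages on equal terms. Peaks of at least 5 kb held 4.49% and 4.98% of the covered length in morula and 5.66% and 5.29% in blastocyst, a difference of 0.74 percentage points (exact permutation p = 0.333). That sign turned in 3 settings. The difference was -5.19 points with lists cut by score, -4.90 with lists cut by score per base and -4.59 with peaks under 1 kb apart joined. The same limit holds for the cut lists.

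In the lists as deposited, about the same share of marked bins lay in runs at both stages. Of the marked bins, 51.6% and 50.1% in morula and 49.7% and 49.3% in blastocyst lay in runs of 3 or more neighbouring marked bins. The mean run was 2.04 and 1.99 kb in morula and 2.03 and 2.01 kb in blastocyst. The stages did not overlap in the share in runs, but the difference, blastocyst minus morula, was -1.36 points (exact permutation p = 0.333). Its size and sign depended on the setting, with the limit given above for cut lists. It was -10.9 points with lists cut by score, -6.66 with lists cut by score per base and -8.68 with bins of 5 kb, but 2.76 with bins of 500 bp and 1.67 when only wholly covered bins were counted. It was -0.632 points without morula replicate 1 and -2.09 without morula replicate 2.

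Kept bins numbered 30711, lost bins 49515 and gained bins 6797. These were 1.23%, 1.99% and 0.273% of all autosomal bins, and the classes are a description of the 4 lists, with no test. Lost bins made up 56.3% of the 87955 bins that both morula lists shared, and kept bins 34.9%. Gained bins made up 16.0% of the 42444 bins that both blastocyst lists shared, and kept bins 72.4%. For each gained bin there were 7.28 lost bins. Replicates set a scale for these shares: of bins marked in either list of a stage, 61.5% were marked in both for morula and 72.3% for blastocyst.

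The lists that give this excess of loss over gain differ in length. When every list was reduced to its best-scoring peaks over 49.0 Mb, 14828 bins were lost and 15031 were gained, and 19948 were kept. With lists of equal length the numbers of lost and gained bins must be close, so this setting cannot show a net change. The cut fell mainly on the morula lists, so bins cut from those lists could count as gained. The shares that follow therefore do not compare the stages on equal terms. Of the bins in both morula lists, 38.6% were then lost, and of the bins in both blastocyst lists, 36.6% were gained. Single libraries moved the counts as well. Requiring only morula replicate 2 gave 76985 lost and 10299 gained bins, and requiring only blastocyst replicate 2 gave 10745 gained bins. Whether the lists differ in length through the amount of mark, the depth or the calling was not tested.

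Many bins counted as lost or gained were not empty in the other stage. Of the lost bins, 36066 (72.8%) had no covered base in either blastocyst list, and mean cover there was 5.06% and 6.62% of the bin. Of the gained bins, 3510 (51.6%) had no covered base in either morula list, and mean cover was 13.4% in morula replicate 1 and 6.84% in replicate 2. Gained bins thus more often held partial cover from the other stage. Morula lists are the longer ones, and this was not corrected for. Mean cover in morula replicate 2 at gained bins (6.84%) was close to that in blastocyst replicate 2 at lost bins (6.62%).

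Lost bins came from narrower and lower-ranked peaks than kept bins. The median peak holding a kept bin was 2000 bp wide in both morula lists, against 1100 and 1300 bp for the peak holding a lost bin. Its score had a median rank of 94.4% and 91.3% within the list for kept bins and of 79.8% and 76.3% for lost bins, where 100% is the highest score. In blastocyst, peaks holding gained bins were 1200 and 1300 bp wide and peaks holding kept bins 1650 and 1750 bp. Peaks of at least 5 kb held 11.6% and 11.2% of the kept bins in the morula lists and 2.68% and 3.75% of the lost bins. These widths come from the lists that defined the classes and are given as a description.

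Whole peaks followed the same division. In the morula lists 28.3% and 32.0% of peaks overlapped a peak in both blastocyst lists, and 64.0% and 60.6% overlapped none. The overlapping peaks had medians of 950 and 1150 bp, and those without overlap 500 and 700 bp. In the blastocyst lists 68.8% and 66.2% of peaks overlapped both morula lists and 17.9% and 20.0% overlapped neither. Of morula peaks of at least 5 kb, 97.0% and 92.0% overlapped both blastocyst lists. Of such blastocyst peaks, 98.8% and 98.1% overlapped both morula lists. A wide peak has more room to overlap another, and this was not corrected for. At 21580 sites with at least 500 bp common to all 4 lists, the median peak was 1600 bp in both morula libraries and 1300 and 1400 bp in blastocyst. At 41.4% of these sites both morula peaks were wider than both blastocyst peaks, and at 19.5% the reverse held.

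Short domains were lost whole more often than long ones. A morula domain is taken here as an unbroken run of bins marked in both morula lists, and 45524 such domains were found. Of the single-bin domains 69.8% were lost whole, of those of 2 bins 46.6%, of those of 3 to 4 bins 32.9% and of those of 5 to 9 bins 16.8%. Of the 465 domains of 10 bins or more, 11 (2.37%) were lost whole. Part of this fall with length follows from asking for every bin of a longer domain, but the share of bins lost also declined, from 69.8% in single-bin domains to 33.6% in those of 10 bins or more. Long domains therefore tended to lose part of their length: 78.1% of those of 10 bins or more held both lost and kept bins.

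**Figure D2:**
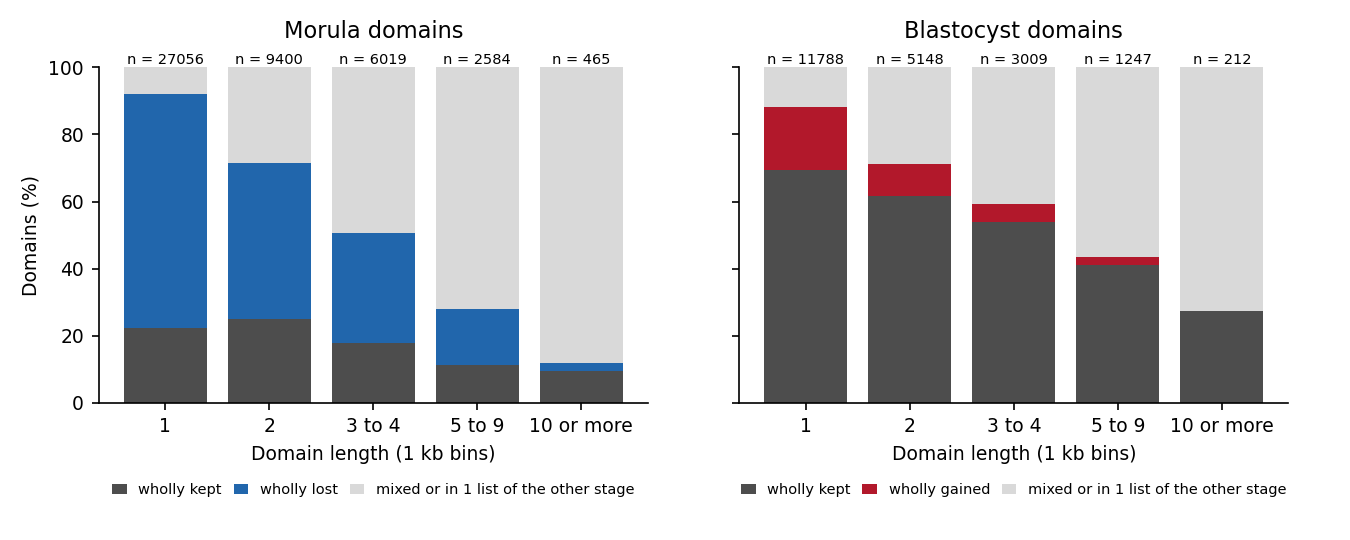
Each bar is all domains of one length class, from 1 bin of 1 kb to 10 bins or more, split in percent by their fate in the other stage, with the number of domains above it. Wholly lost morula domains shrink from 69.8% of single bins to 2.37% of the longest class, and wholly gained blastocyst domains from 18.9% to 0.

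Blastocyst domains, runs of bins marked in both blastocyst lists, numbered 21404. Of these 2906 (13.6%) were wholly gained and 63.2% wholly kept. Single-bin domains were wholly gained in 18.9% of cases and domains of 5 to 9 bins in 2.33%, and none of the 212 domains of 10 bins or more was wholly gained. Gained bins sat closer to kept bins than lost bins did. A kept bin was the direct neighbour of 21.7% of gained and 11.5% of lost bins, and the median distance to the nearest kept bin was 8 kb for gained and 18 kb for lost bins. Beyond 100 kb from any kept bin lay 11.1% of gained and 23.0% of lost bins. Within their own class, lost bins formed 33971 runs with a mean of 1.46 kb and a longest run of 13 kb. Gained bins formed 5150 runs with a mean of 1.32 kb and a longest run of 9 kb.

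Loss was spread over nearly all of the genome, and gain was patchier. Of 2473 windows of 1 Mb, 52 held no lost bin and 1068 held no gained bin. The tenth of windows richest in each class held 31.2% of lost, 43.6% of kept and 49.0% of gained bins; the classes differ in size, and this was not corrected for. Among chromosomes, the share of morula bins that were lost ran from 46.0% on chromosome 18 to 64.9% on chromosome 12. The share of blastocyst bins that were gained ran from 12.2% on chromosome 19 to 23.9% on chromosome 24.

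The difference between ICM and TE had opposite signs at lost and gained bins. The lineage lists took no part in choosing the bins, but the blastocyst lists that did hold both lineages together. Those lists overlapped TE more than ICM (overlap divided by union 0.554 to 0.591 against 0.350 to 0.383). The directions below are therefore not independent of that likeness. Lost bins were marked by H3K27ac in 37.0% and 34.2% of cases in the ICM lists and in 5.56% and 6.32% in the TE lists. Over all autosomal bins the same lists marked 4.11% and 3.83% in ICM and 2.28% and 2.40% in TE. ICM exceeded TE at lost bins in both libraries, with means of 35.6% ± 2.00 and 5.94% ± 0.540 (SD, n = 2 each), a difference of 29.6 points (exact two-sided permutation p = 0.333). Because ICM lists are longer, each percentage was also divided by that of all bins in its library, and lost bins were still 1.82 higher in ICM on the log2 scale.

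Gained bins showed the reverse. They were marked in 48.3% and 44.5% of cases in the ICM lists and in 85.4% and 87.4% in the TE lists. The means were 46.4% ± 2.70 and 86.4% ± 1.41 (SD, n = 2 each), a difference of -40.0 points (exact two-sided permutation p = 0.333). Relative to all bins of each list, ICM was 1.66 lower on the log2 scale (a difference of -1.66). Gained bins were therefore marked at more than background in both lineages, and more often in TE. In ICM as well, gained bins were marked more often than lost bins (means 46.4% against 35.6%). With all lists cut to one length, lost bins were marked in 23.7% and 24.2% in ICM and 5.59% and 5.44% in TE, and gained bins in 40.3% and 40.5% in ICM and 80.3% and 80.8% in TE. The directions were the same in each alternative run.

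Kept bins were marked in most cases in every lineage library. The ICM lists marked 91.9% and 90.8% of them and the TE lists 84.2% and 83.9%. ICM was 7.30 points higher, but relative to all bins of each list it was 0.64 lower on the log2 scale (a difference of -0.64), and that difference was 0.07 with lists cut to one length by score. No direction between lineages is therefore given for kept bins.

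**Figure D3:**
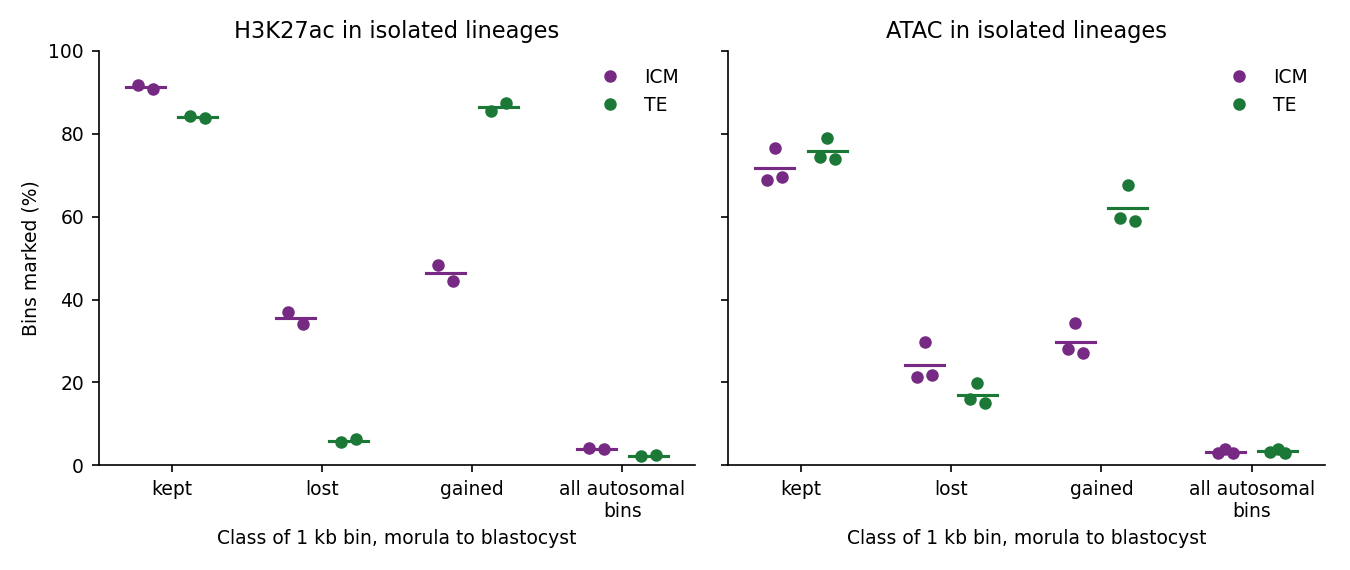
Each point is 1 library and gives the percent of kept, lost, gained or all autosomal 1 kb bins that it marks, for H3K27ac on the left and ATAC on the right; horizontal lines are group means. Lost bins are marked more often in ICM than in TE, gained bins more often in TE than in ICM, and the libraries of the lineages do not overlap in either class.

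Sorting each bin by its calls in the 4 lineage lists gave the same picture. A bin is called ICM only where both ICM and neither TE list marked it, TE only in the opposite case, both where all 4 marked it, neither where none did, and mixed otherwise. Over all autosomal bins 1.28% were in both, 1.53% ICM only and 0.447% TE only. Of the lost bins, 909 (1.84%) were in both, 11661 (23.6%) ICM only, 414 (0.836%) TE only and 27153 (54.8%) in neither. ICM only outnumbered TE only 28.2 to 1 among lost bins, against 3.42 to 1 over all bins. Of the gained bins, 2084 (30.7%) were in both, 275 (4.05%) ICM only, 2656 (39.1%) TE only and 191 (2.81%) in neither. TE only outnumbered ICM only 9.66 to 1 there. Of the kept bins, 70.9% were in both, 8.93% ICM only, 4.31% TE only and 0.918% in neither.

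The loss seen in whole blastocysts was thus a mixture. More than 1 in 5 lost bins carried the mark in both ICM lists while absent from both blastocyst lists, and somewhat over 50% were marked in no lineage library. Lost bins marked in ICM only came from wider morula peaks (medians 1300 and 1500 bp) than lost bins marked in neither lineage (1000 and 1200 bp). They were next to a kept bin in 19.1% of cases, against 4.94%. Partial cover in the blastocyst lists was also higher, at 8.64% and 11.1% of the bin against 1.58% and 2.32%.

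Open chromatin followed H3K27ac in direction, with a smaller contrast at both lost and gained bins. At lost bins ATAC marked 21.3%, 29.8% and 21.7% in ICM and 16.1%, 19.8% and 15.1% in TE. At gained bins it marked 28.1%, 34.3% and 27.03% in ICM and 59.6%, 67.7% and 59.0% in TE. In each lineage replicate 2 was the highest, and the lineages did not overlap in either class. Lost bins differed by 7.25 points (24.3% ± 4.77 in ICM, 17.0% ± 2.47 in TE, SD, n = 3 each, exact permutation p = 0.1). Gained bins differed by -32.3 points (29.8% ± 3.93 in ICM, 62.1% ± 4.87 in TE, SD, n = 3 each, exact permutation p = 0.1). The smallest p that 3 against 3 allows is 0.1, and after Benjamini-Hochberg adjustment over the 16 tests of this report every p at its floor became 0.381. Relative to all bins of each list the differences were 0.60 at lost and -0.96 at gained bins (log2). At kept bins ATAC overlapped between lineages (71.6% ± 4.23 in ICM, 75.8% ± 2.84 in TE, SD, n = 3 each, exact permutation p = 0.3).

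Calling status in the same way from the 6 ATAC lists gave 1.47% of all autosomal bins in both lineages, 0.334% ICM only and 0.42% TE only. Of the lost bins, 7.28% were open in both, 2398 (4.84%) ICM only, 636 (1.28%) TE only and 59.7% in neither. Of the gained bins, 17.9% were open in both, 66 (0.971%) ICM only, 1446 (21.3%) TE only and 21.3% in neither. Kept bins were open in both in 53.9% of cases. TE only outnumbered ICM only 21.9 to 1 among gained bins and 1.26 to 1 over all bins, and ICM only outnumbered TE only 3.77 to 1 among lost bins. Whole blastocysts lay between the lineages at gained bins, with 39.0%, 49.8% and 57.8% marked by ATAC.

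**Figure D4:**
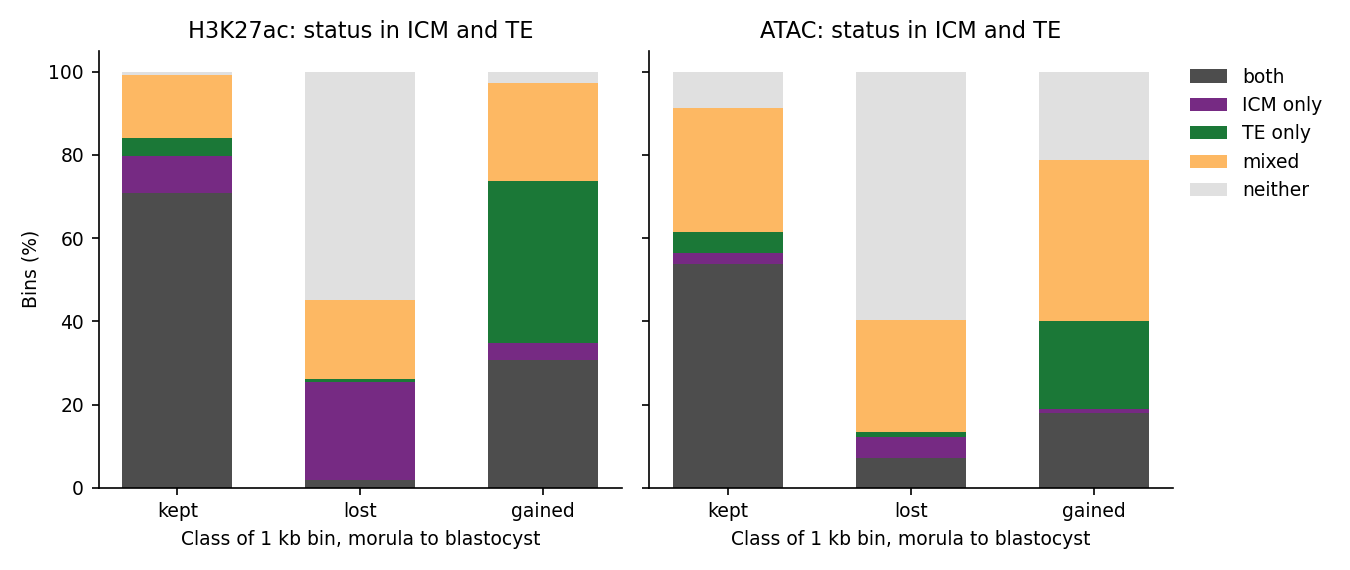
Stacked bars give the percent of kept, lost and gained bins that are marked in both lineages, in ICM only, in TE only, in neither or in a mixed pattern, from the 4 H3K27ac lists on the left and the 6 ATAC lists on the right. For H3K27ac, lost bins are mostly in neither lineage or in ICM only, and gained bins mostly in TE only or in both. For ATAC, 59.7% of lost bins are in neither lineage, and the largest part of gained bins is mixed (38.6%).

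The assays met at part of the same bins. Of the 11661 lost bins with H3K27ac in ICM only, 1360 (11.7%) were open in ICM only and 41 (0.352%) in TE only. Another 12.6% were open in both, 37.9% in neither, and 37.5% were mixed. Of the 2656 gained bins with H3K27ac in TE only, 989 (37.2%) were open in TE only and 0 in ICM only. Another 4.41% were open in both, 21.8% in neither, and 36.6% were mixed. Over all autosomal bins, 0.334% were open in ICM only and 0.42% in TE only. Of the 27153 lost bins without H3K27ac in any lineage list, 75.6% were also in none of the 6 lineage ATAC lists. Counting the blastocyst ATAC lists too, 19372 lost bins (39.1%) were in no lineage H3K27ac list and no ATAC list. The same held for 0.283% of kept and 1.34% of gained bins, and for 91.1% of all autosomal bins.

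H3K4me3, the mark of active promoters, was most frequent at kept bins and above the background in every class. Over all autosomal bins it marked 1.796% and 1.99% in morula and 1.85% and 2.02% in blastocyst. It marked 52.8% and 57.0% of kept bins in morula and 55.5% and 58.0% in blastocyst. At lost bins it marked 11.7% and 13.4% in morula and 7.10% and 7.91% in blastocyst. At gained bins it marked 13.9% and 15.5% in morula, 31.9% and 34.7% in blastocyst, 17.3% and 17.8% in ICM and 36.1% and 33.7% in TE. Most lost and gained bins had no H3K4me3 call in a given library, though their shares were several times the background. Among gained bins with H3K27ac in TE only, H3K4me3 marked 2.90% and 3.61% in morula, 2.64% and 3.31% in ICM and 26.6% and 23.3% in TE.

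H3K27me3 ran opposite to H3K27ac at gained bins. It marked 10.3% and 9.28% of gained bins in morula, 3.28% and 2.56% in blastocyst, 6.84% and 6.53% in ICM and 1.00% and 1.15% in TE. Over all autosomal bins it marked 6.55% and 6.00% in morula, 10.9% and 11.3% in blastocyst, 9.88% and 9.89% in ICM and 10.8% and 11.2% in TE. Gained bins thus went from above the background in morula to below it in blastocyst and further below it in TE. Of the 567 gained bins with H3K27me3 in both morula lists, 386 (68.1%) had it in neither blastocyst list and 506 (89.2%) in neither TE list, while 270 (47.6%) had it in both ICM lists. Of all 130962 autosomal bins with H3K27me3 in both morula lists, 12.2% had it in neither blastocyst list, 15.6% in neither TE list and 81.4% in both ICM lists. These groups were not tested against each other, and the H3K27me3 peaks are far wider than a bin, so that neighbouring bins often share 1 peak.

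Lost bins changed the other way and stayed below the background. H3K27me3 marked 2.41% and 2.14% of lost bins in morula, 8.32% and 7.51% in blastocyst, 5.76% and 5.59% in ICM and 7.96% and 7.79% in TE. In both blastocyst and neither morula list it was found at 2334 lost bins (4.71%), close to the 4.18% of all autosomal bins and above the 0.394% of kept bins. Most lost bins therefore had no H3K27me3 call at either stage. Lost bins with H3K27ac in ICM only had H3K27me3 in 1.46% and 1.25% of cases in ICM and 5.61% and 5.41% in TE.

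**Figure D5:**
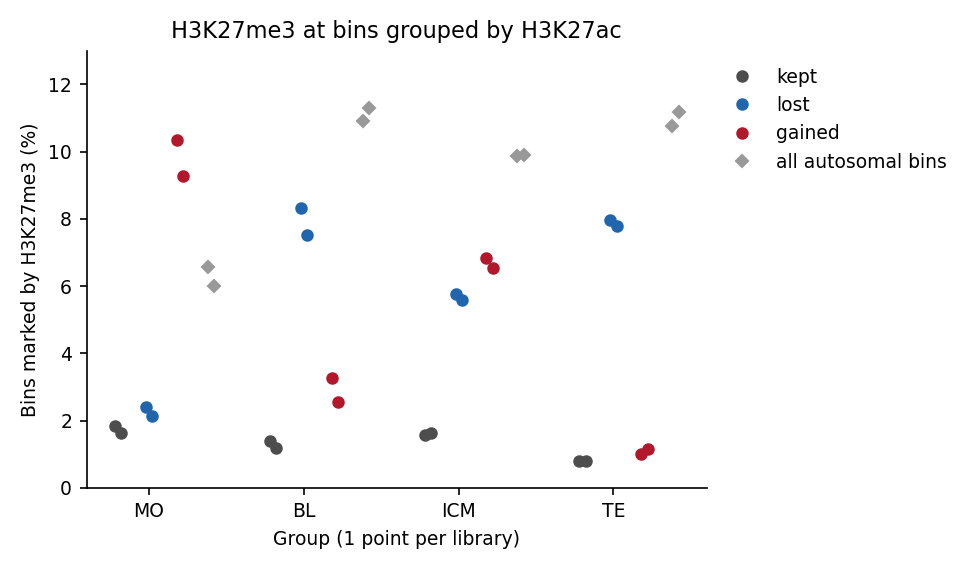
Each point is 1 library and gives the percent of kept, lost, gained or all autosomal bins marked by H3K27me3 in morula, blastocyst, ICM and TE. Gained bins lie above all bins in morula (10.3% and 9.28%) and near 1% in TE, whereas lost bins are near 2% in morula and near 8% in blastocyst and TE.

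Earlier stages separated the classes as well. In both libraries of 8-cell embryos, H3K27ac marked 31.9% of kept, 16.6% of lost and 5.52% of gained bins, against 2.56% of all bins. In both libraries of germinal vesicle (GV) oocytes it marked 35.5% of kept, 13.9% of lost and 14.4% of gained bins, against 4.08%. Lost and gained bins were thus near each other in the oocyte and apart in the 8-cell embryo. The oocyte libraries pooled oocytes and the embryo libraries blastomeres, so input differed between these stages, and this was not corrected for. No library of the oocyte or of the 2-, 4- and 8-cell stages marked 39.8% of kept, 58.5% of lost and 68.1% of gained bins, against 87.6% of all autosomal bins, so each class had been marked before more often than the background. Marked in both oocyte or both 2-cell libraries, but in neither 8-cell library, were 10.8% of kept, 7.84% of lost and 11.4% of gained bins. The share of all bins was 3.34%.

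Single regions show these patterns. The longest stretch covered in both morula and in no base of either blastocyst list was chr28:27866601-27874300, of 7.7 kb. ICM lists covered 14.3% and 10.4% of it, and TE lists none. The second, chr7:51079651-51086300, of 6.65 kb, had no H3K27me3 in morula or ICM, 100% and 70.7% cover by it in blastocyst and 83.5% and 97.7% in TE. The third, chr23:32258301-32264650, of 6.35 kb, was covered by H3K27ac in 83.5% and 85.0% of its length in ICM, none in TE, and 94.5% and 83.5% in 8-cell embryos. ATAC covered 35.4% to 45.7% of it in ICM and none in TE. The fourth, chr7:60617451-60623450, of 6 kb, was covered in 20.0% and 9.17% in ICM and 0 and 5.83% in TE. The fifth, chr21:34276601-34282300, of 5.7 kb, was covered in 77.2% and 61.4% in ICM and 5.26% in both TE lists. Each of the 5 had more H3K27ac cover in the ICM mean than in the TE mean. For the second this rested on ICM replicate 2 alone, with 0 and 25.6% in ICM and 0 in both TE lists. Over all autosomal bins the ICM lists marked 4.11% and 3.83% and the TE lists 2.28% and 2.40%. The stretches were chosen for no cover in the blastocyst lists, which overlapped TE more than ICM. Less cover in TE is therefore not independent of that choice, and the count is only a description.

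The longest gained stretch was chr2:126777501-126783300, of 5.8 kb. H3K27ac covered all of it in both TE lists and 29.3% and 0 in ICM. ATAC covered 64.7% to 77.6% of it in TE and 8.62% in each ICM library. H3K27me3 covered 100% and 98.3% in morula and 100% and 84.5% in ICM, and 0 in both blastocyst and both TE lists. H3K4me3 covered none in morula and 100% and 97.4% in blastocyst. This stretch therefore held H3K27me3 in morula and ICM, and H3K27ac in blastocyst and TE.

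The third gained stretch, chr5:113556401-113560950, of 4.55 kb, had the same H3K27me3 pattern, with 100% in every morula and ICM list and 0 in blastocyst and TE. Its H3K27ac cover was 98.9% and 97.8% in TE and 44.0% and 53.8% in ICM, so both marks were called within it in ICM. The second, chr25:38875151-38880400, of 5.25 kb, had H3K27me3 in morula (83.8% and 22.9%) but in none of the blastocyst, ICM or TE lists. The fourth, chr26:15309351-15313700, of 4.35 kb, and the fifth, chr16:50549451-50553550, of 4.1 kb, had no H3K27me3 in any of these lists. They were covered by H3K27ac in both lineages: 90.8% and 85.1% in ICM and 100% in TE for the fourth, and 97.6% and 100% in both for the fifth. Gained stretches thus differed in whether H3K27me3 preceded them and in whether ICM shared them.

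The longest stretches common to all 4 lists were chr29:43604401-43615250 (10.85 kb), chr19:39451801-39461450 (9.65 kb), chr23:9442351-9452000 (9.65 kb), chr19:22612651-22621700 (9.05 kb) and chr3:14324451-14333200 (8.75 kb). All were covered over at least 93.7% of their length in each ICM and TE list, and none had H3K27me3 in morula, blastocyst, ICM or TE. The stretch on chromosome 23 was the one where ATAC separated the lineages, with 24.9% to 36.3% in ICM and 78.8% to 95.9% in TE.

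At the scale of 1 Mb, the windows with the most lost bins were chr3:101000001-102000000 with 114, chr25:26000001-27000000 with 106 and chr10:45000001-46000000 with 105. In the first, 40 lost bins were marked in ICM only and 0 in TE only. The second had 49 and 0, and the third 33 and 2. The windows with the most gained bins were chr16:50000001-51000000 with 36, chr9:95000001-96000000 with 33 and chr9:94000001-95000000 with 32. In the first, all 36 gained bins were marked in each TE list, 21 in both lineages, 9 in TE only and 0 in ICM only. In the second 18 were in both and 11 in TE only, and in the third 8 in both and 15 in TE only. No gained bin of these 3 windows was marked in ICM only.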

How the data were processed

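Each of the 81 libraries was deposited as a peak list, of which 51 were used. The submitters' processing notes give ARS-UCD1.2 as the build and list SICER, SAMtools 1.9, Picard 2.26.10 and BWA 0.7.9a beside the trimmers Trim Galore 0.4.0 and cutadapt 1.8.3. The sources used here state neither filters nor calling thresholds. The deposited score of each peak has no stated meaning and was used only to rank peaks within a list. Peak ends lay 1 base short of a 50 bp grid in the H3K27ac lists, and that base was added. Peaks were called per library, and groups came from the sample titles.

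Cover, bins, runs and stretches came from code in pandas 2.3.3 and NumPy 2.4.6 under Python 3.11.15, which was tested on simulated lists. Groups were compared with exact two-sided permutation tests over libraries. The members and lists were chosen with earlier results of these data known. Named regions are the 5 longest stretches per class, with every base covered in the lists that define it and none in the other stage, and the 3 windows richest in lost and in gained bins. Gene names were planned but not used here, because the gene table at hand is of another build. Alternatives were other bin rules and sizes, lists cut to one length, joined peaks, left-out libraries and a replicate block; a rule of no covered base in the other stage was added after seeing the data.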

Additional observations from a re-analysis of the deposited data

Results flagged for a closer look

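Gained and lost bins were ordered differently by H3K27me3 in the isolated lineages. In ICM, gained bins were marked more often than lost bins, by 1.08 percentage points in replicate 1 and 0.942 in replicate 2. In TE the difference, gained minus lost, was -6.95 points in replicate 1 and -6.64 in replicate 2. Both libraries of each lineage moved the same way and the lineages in opposite ways; the difference between them was not tested.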

How the results depend on the processing

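The directions between ICM and TE at lost and gained bins, for H3K27ac and ATAC, held in every alternative run. The H3K27ac difference was 18.0 to 33.8 points at lost and -55.4 to -25.2 at gained bins, and the ATAC difference 3.11 to 12.1 and -41.8 to -18.1. The counts depended on the rule. With any covered base, 61061 bins were kept, 86131 lost and 11166 gained; with wholly covered bins, 6595, 11564 and 3019, and the share in runs differed by 1.67 points. With 500 bp bins that share differed by 2.76, and with 5 kb bins 16030 were kept and 32440 lost (per 1 kb). Lists cut by score gave 19948 kept, 14828 lost and 15031 gained, a broad share of -5.19 and a kept H3K27ac difference of 0.0715 (log2). Lists cut by score per base gave 19643, 14534, 14682, -4.90 and 0.0033. Cutting fixes the covered length, so no ratio is given for it. It also took more from the morula lists, so the counts and the broad share after cutting carry that limit. Joined peaks gave a broad share of -4.59. The rule of no covered base left 3510 gained bins. With 1 library left out, lost bins ran from 52004 to 76985 and gained bins from 8231 to 10745; fewer lists to satisfy raises these counts by construction. The kept ATAC difference (log2) was 0.0177 and turned to -0.0734 with any base, -0.0292 with 500 bp, -0.0063 with 5 kb and -0.0040 with joined peaks, and ran from -0.0589 to 0.112 with 1 library left out; other causes were not tested.

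Libraries share replicate numbers, but same-numbered libraries did not deviate together over the 155329 bins marked in at least 1 morula or blastocyst list. There r was -0.0164 for MO and BL and -0.0035 for ICM and TE. Bins marked only in lineage lists lay outside this set, so r does not decide whether libraries were paired. With a replicate block the lost H3K27ac difference was 29.6 points (exact p = 0.5) and the gained one -40.0 (exact p = 0.5), the smallest p such a design allows. Without read depth, uncalled and unmarked regions cannot be told apart.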

Other observations

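Bins chosen by lineage rather than by stage restate the relation between lineages and stages given above, and are not a separate test of it. Of 37983 autosomal bins with H3K27ac in ICM only, 44.8% were marked in both morula lists and 8.92% in both blastocyst lists. Of 11118 bins with H3K27ac in TE only, 18.8% were marked in both morula lists and 42.2% in both blastocyst lists. The 31935 bins marked in both lineages were in both morula lists in 76.3% of cases and in both blastocyst lists in 82.8%. About the same share of ICM only (34.5%) and TE only bins (31.8%) was in no morula and no blastocyst list. Of all 2488032 autosomal bins, 87955 were in both morula lists, 42444 in both blastocyst lists and 2332703 in no list of either stage. Morula lists are the longer ones, and this was not corrected for, so the morula and blastocyst shares cannot be compared directly. ICM only bins exclude TE calls by definition, and the blastocyst lists overlapped TE more than ICM. A low blastocyst share there is therefore not independent of that likeness.

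By the overlap of marked bins divided by their union, whole blastocyst lists scored 0.554 to 0.591 with TE lists and 0.350 to 0.383 with ICM lists. Morula lists scored 0.366 to 0.407 with ICM and 0.245 to 0.274 with TE. These indices also move with the length of the lists.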
